A study of Mus musculus with 9 samples.

Results

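The data described here are the RNA levels of 44 cell cycle genes in colonic intestinal epithelial cells (IECs) of mice. The genes were taken by symbol from a count table of 46095 symbols. They comprise 21 genes of DNA replication, 21 genes of mitosis and the D-type cyclins Ccnd1 and Ccnd2, and all 44 were in the table. All but Cdc45 passed the filter on low counts, as did 14593 genes of the table in all.

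The comparison was between 4 libraries of the Smad4-knockout genotype (S-1 to S-4, called S) and 5 libraries of the Smad4-knockout;Setd2-knockout genotype (DDKO-1 to DDKO-5, called DDKO). Both groups therefore carried the Smad4 deletion, and Setd2, which encodes a histone methyltransferase, was removed in DDKO in addition. Floxed alleles were deleted by Villin-Cre, which acts in the intestinal epithelium and not in leukocytes or stroma. All mice had received azoxymethane (AOM), a colon carcinogen, at 10 mg/kg at 8 weeks of age, followed by 1 cycle of 2% dextran sulfate sodium (DSS), an agent that damages the lining of the colon, and EDTA was used to release IECs at 10 days. There was no group with intact Smad4 and none without AOM/DSS. The labels number the libraries within a genotype without saying that each is 1 mouse, so p-values measure the spread between these libraries. The question is whether removal of Setd2 was accompanied by different RNA levels of the genes that copy DNA and of those that divide the cell.

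Proliferation in the colon takes place in the lower crypt, and cells leave the cycle as they move up and differentiate. In late G1, D-type cyclins with Cdk4 or Cdk6 and then E-type cyclins with Cdk2 phosphorylate the retinoblastoma protein, which frees E2F factors to transcribe the replication genes. Origins are licensed when Cdc6 and Cdt1 load the Mcm helicase, which Cdc45 and the GINS complex then activate. The mitosis genes are transcribed later, in G2, when B-Myb bound to the MuvB core and Foxm1 activate them; in quiescence and early G1 they are repressed by the DREAM complex, which shares the MuvB core. Both act mostly through a DNA element called the CHR, near which CCAAT boxes often lie. Bulk RNA cannot tell a larger share of cells in a phase from more RNA per cell.

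The promoters of both groups of genes were searched for these elements, and 5 of them are shown as examples of genes of either phase whose values follow. RefSeq windows on GRCm38.p6 (250 bases before to 50 after the start) were at hand for 17 of the 21 replication genes and 17 of the 21 mitosis genes. The words searched on both strands were TTTCCCGC, TTTCGCGC, TTTGCCGC and TTTGGCGC for E2F, TTTGAA for the CHR, and CCAAT. At least 1 E2F word was in the windows of 7 of 17 replication genes (41.2%; Mcm3, Mcm5, Mcm6, Mcm7, Cdc6, Cdt1 and E2f2), 1 of 17 mitosis genes (5.88%; Cdk1) and 2.61% of all 27018 genes with a window. The CHR word was in 3 of 17 replication genes (17.6%), 13 of 17 mitosis genes (76.5%) and 20.2% of all genes, and CCAAT in 11 (64.7%), 16 (94.1%) and 41.1%. E2F words on opposite strands can overlap. The 250 bases before the start follow, 5′ to 3′ on the strand of the gene, with every match on either strand in capitals. Mcm5 lies on the plus strand (chr8:75109259-75109508), and Mcm6 (chr1:128359706-128359955), Cdk1 (chr10:69352913-69353162), Cdc20 (chr4:118437344-118437593) and Mki67 (chr7:135716380-135716629) lie on the minus strand.
Mcm5: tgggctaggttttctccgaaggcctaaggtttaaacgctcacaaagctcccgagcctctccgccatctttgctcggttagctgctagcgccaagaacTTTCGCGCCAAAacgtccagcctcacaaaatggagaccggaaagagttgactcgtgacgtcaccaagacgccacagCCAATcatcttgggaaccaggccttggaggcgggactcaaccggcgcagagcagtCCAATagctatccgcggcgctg
Mcm6: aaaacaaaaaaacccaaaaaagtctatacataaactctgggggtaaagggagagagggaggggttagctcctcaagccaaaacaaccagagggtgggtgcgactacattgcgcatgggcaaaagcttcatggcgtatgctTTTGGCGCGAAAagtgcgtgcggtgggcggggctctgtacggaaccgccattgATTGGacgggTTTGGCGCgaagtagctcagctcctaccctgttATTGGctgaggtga
Cdk1: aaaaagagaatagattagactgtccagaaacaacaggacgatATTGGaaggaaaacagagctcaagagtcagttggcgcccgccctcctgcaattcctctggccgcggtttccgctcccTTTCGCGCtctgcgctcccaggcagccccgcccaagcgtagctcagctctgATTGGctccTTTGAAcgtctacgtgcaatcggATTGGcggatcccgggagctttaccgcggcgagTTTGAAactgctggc
Cdc20: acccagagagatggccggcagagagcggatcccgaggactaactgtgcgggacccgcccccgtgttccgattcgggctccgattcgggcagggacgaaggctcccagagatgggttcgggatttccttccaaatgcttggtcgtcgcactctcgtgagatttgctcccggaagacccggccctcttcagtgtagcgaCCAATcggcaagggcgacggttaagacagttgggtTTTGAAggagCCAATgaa
Mki67: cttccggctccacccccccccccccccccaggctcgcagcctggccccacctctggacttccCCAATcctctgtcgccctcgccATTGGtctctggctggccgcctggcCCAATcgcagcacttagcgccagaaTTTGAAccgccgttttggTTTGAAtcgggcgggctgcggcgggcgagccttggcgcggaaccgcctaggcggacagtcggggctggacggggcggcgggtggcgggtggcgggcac
In the stretches shown, Mcm5 and Mcm6 hold 2 and 3 E2F words and no CHR word. Cdc20 and Mki67 hold 1 and 2 CHR words and no E2F word, and Cdk1 holds 1 E2F word and 2 CHR words. A match is a stretch of letters and was not tested for binding.

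Libraries held 12487129 to 17120202 counts, with TMM factors of 0.956 to 1.09, and values are given as TMM-normalized counts scaled to the same library total (CPM). Setd2 was at 118, 120.1, 99.2 and 114 CPM in S-1 to S-4 and 57.8, 87.1, 55.7, 53.9 and 76.1 CPM in DDKO-1 to DDKO-5 and was lower in every DDKO library (log2 fold change -0.77, SE 0.14, adjusted p = 0.00756, quasi-likelihood test of edgeR, adjusted by Benjamini-Hochberg). Smad4 ranged from 54.3 to 92.7 CPM in S and from 38.2 to 114 CPM in DDKO, and with no library of intact Smad4 these whole-gene values do not check its deletion. The 8 epithelial markers summed to 12301 to 14102 CPM in S and 11424 to 13539 CPM in DDKO, and none passed the test. The 12 leukocyte markers summed to 79.6 to 194 and 72.1 to 167 CPM, with Ptprc, which encodes CD45, at 22.3 to 56.3 CPM in the 9 libraries, and the 8 stroma and vessel markers to 21.7 to 38.9 and 30.6 to 69.8 CPM. No leukocyte marker and none of the 6 stroma and vessel markers tested passed the test, and of these lists only Acta2 was at 0 in a library, DDKO-4. Y-linked counts (4 genes summed) were 4907, 4745 and 3857 in DDKO-1, DDKO-2 and DDKO-5 and 0 to 28 in the other libraries, so that libraries with high Y-linked counts were in DDKO alone. The labels give no sex, and Y-linked counts and genotype are partly confounded, so that in the fit of all 9 libraries without a Y-linked term a difference of sex cannot be told apart from that of genotype.

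No replication gene passed the test, and the replication genes as a group had a median above that of all genes. Of 20 replication genes tested, 0 were called in either direction by edgeR's quasi-likelihood test at an adjusted p under 0.05, where 13.3% of all 14593 genes were called (6.76% higher and 6.54% lower). By a fold over 1.5 with an unadjusted p under 0.05, 0 of the 20 were called too, against 7.54% of all genes higher and 6.24% lower. At an unadjusted p under 0.05, 8 were higher in DDKO and 0 lower, against 15.3% of all genes in each direction; DESeq2 called 2 (Mcm4 and Mcm6) and limma-voom 3 (Mcm4, Pcna and Rrm2), all higher. Without DDKO-1 or without S-1 the 8 became 3 (15% of the 20), against 13.8% and 12.9% of all genes in those fits. They numbered 4 without S-3 or S-4 (20%), 5 without DDKO-3 (25%) and 12 without DDKO-5 (60%). In those fits, in that order, 12.4%, 13.9%, 15.2% and 18.1% of all genes were higher. DESeq2 called 10.01% of all genes higher and limma-voom 9.61%. Their log2 fold changes ran from -0.10 to 0.50 with a median of 0.29, 18 above 0 and 2 below, while the median over all genes tested was -0.00060 and 50% lay below 0. DDKO and S libraries overlapped for all 21 genes, whereas DDKO lay wholly above S for 8.34% of all genes and wholly below for 8.87%.

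The Mcm genes encode the subunits of the replicative helicase. Mcm2 was at 48.4, 51.2, 53.8 and 50.7 CPM in S-1 to S-4 and 83.1, 53.7, 59.6, 59.8 and 43.8 CPM in DDKO-1 to DDKO-5. Mcm5 was at 64.2, 72.7, 73.1 and 62.6 CPM in S-1 to S-4 and 113, 59.8, 89.8, 82.2 and 64.4 CPM in DDKO-1 to DDKO-5. Mcm6, with the highest level per length of the 6 in both groups (20.1 ± 1.65 CPM per kb of exon in S and 26.6 ± 5.98 in DDKO, mean ± SD), was at 84.1, 102, 97.3 and 91.8 CPM in S-1 to S-4 and 169, 114, 119.8, 124 and 93.1 CPM in DDKO-1 to DDKO-5. DDKO-1, DDKO-3 and DDKO-4 exceeded every S library for all of these genes, DDKO-2 exceeded them for Mcm6 and DDKO-5 for none. Mcm4 came closest to the threshold of all 44 genes (47.8, 51.5, 48.6 and 46.7 CPM in S-1 to S-4 and 88.1, 61.0, 74.8, 59.5 and 50.3 CPM in DDKO-1 to DDKO-5; log2 fold change 0.46, SE 0.14, adjusted p = 0.0599, edgeR), with all DDKO libraries but DDKO-5 above the highest S library. The log2 fold changes of the other Mcm genes were 0.23 (Mcm2), 0.46 (Mcm3), 0.26 (Mcm5), 0.40 (Mcm6) and 0.17 (Mcm7), with SE of 0.15 to 0.20, and the smallest adjusted p among them in edgeR's test was 0.0927 (Mcm6). Mcm7 overlaps Ap4m1 and Cops6 on the other strand, and whether the counting used strand is not stated.

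Cdc6 and Cdt1 load the Mcm helicase onto origins. Cdc6 was at 12.6, 15.3, 11.9 and 14.0 CPM in S-1 to S-4 and 18.7, 11.5, 26.5, 20.5 and 12.4 CPM in DDKO-1 to DDKO-5. Cdt1, which overlaps the gene model Gm20388, was at 24.8, 23.4, 25.5 and 21.4 CPM in S-1 to S-4 and 42.0, 32.8, 21.3, 25.1 and 22.0 CPM in DDKO-1 to DDKO-5. The DDKO libraries with the highest values differed between these partners, DDKO-3 and DDKO-4 for Cdc6 and DDKO-1 and DDKO-2 for Cdt1 (log2 fold change 0.41 ± 0.23 and 0.27 ± 0.19, ± SE). The value of Cdt1 turned sign with a Y-linked term (-0.039) and without the libraries of high Y-linked counts (-0.035), both of which compare DDKO-3 and DDKO-4 with S. Of the genes that activate the helicase, Gins2, which overlaps Gse1 on the other strand and Gm20388, had a log2 fold change of 0.37 ± 0.19 and Gins1 of 0.09 ± 0.19. Cdc45 had 7, 4, 5 and 4 counts in S and 12, 4, 11, 8 and 1 in DDKO and was removed by the filter. It overlaps Ufd1, listed under the older symbol Ufd1l with 8 to 157 counts, so that its level is uncertain.

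Pcna, the sliding clamp of the DNA polymerases, had the highest level per length of all 44 genes in both groups (44.9 ± 1.58 CPM per kb in S and 55.8 ± 8.83 in DDKO). Pcna was at 106, 109.9, 112 and 104 CPM in S-1 to S-4 and 159, 127, 146, 136 and 102 CPM in DDKO-1 to DDKO-5, above the highest S library in every DDKO library but DDKO-5 (log2 fold change 0.31, SE 0.11, adjusted p = 0.092, edgeR). Rrm2, the small subunit of ribonucleotide reductase and limiting for deoxynucleotide supply in S phase, was at 36.8, 37.8, 33.5 and 31.4 CPM in S-1 to S-4 and 62.4, 36.9, 56.8, 53.6 and 33.0 CPM in DDKO-1 to DDKO-5. DDKO-1, DDKO-3 and DDKO-4 stood above the S libraries and DDKO-2 and DDKO-5 within their range (log2 fold change 0.48, SE 0.18, adjusted p = 0.103, edgeR). Rrm1, the large subunit, had a log2 fold change of 0.31 ± 0.13 and Tyms, which makes thymidylate, of 0.13 ± 0.11. Chaf1b, a subunit of the factor that deposits histones behind the fork, had the largest log2 fold change of the 20 (0.50 ± 0.21, adjusted p = 0.14, edgeR), and its partner Chaf1a, which overlaps Ubxn6 on the other strand, had 0.06 ± 0.16.

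Upstream of these genes stand the E-type cyclins and the activator E2Fs. Ccne1 was at 8.47, 10.9, 12.5 and 6.43 CPM in S-1 to S-4 and 17.6, 11.1, 10.5, 9.36 and 7.91 CPM in DDKO-1 to DDKO-5. Ccne2, which overlaps Ints8 on the other strand, was at 12.4, 17.7, 15.4 and 17.8 CPM in S-1 to S-4 and 21.3, 15.9, 25.0, 22.4 and 17.3 CPM in DDKO-1 to DDKO-5. For Ccne1 DDKO-1 alone exceeded the S libraries, and for Ccne2 DDKO-1, DDKO-3 and DDKO-4 did (log2 fold change 0.24 ± 0.25 and 0.37 ± 0.16). E2f1 was at 8.34, 9.33, 7.92 and 8.49 CPM in S-1 to S-4 and 9.55, 8.18, 8.81, 8.97 and 5.27 CPM in DDKO-1 to DDKO-5. E2f1 and E2f2 were the only replication genes with a log2 fold change below 0 (-0.06 ± 0.18 and -0.10 ± 0.13), and E2f1 in 1 and E2f2 in no leave-one-out fit turned sign; with a term for high Y-linked counts both lay above 0 (0.06 and 0.13).

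**Figure D1:**
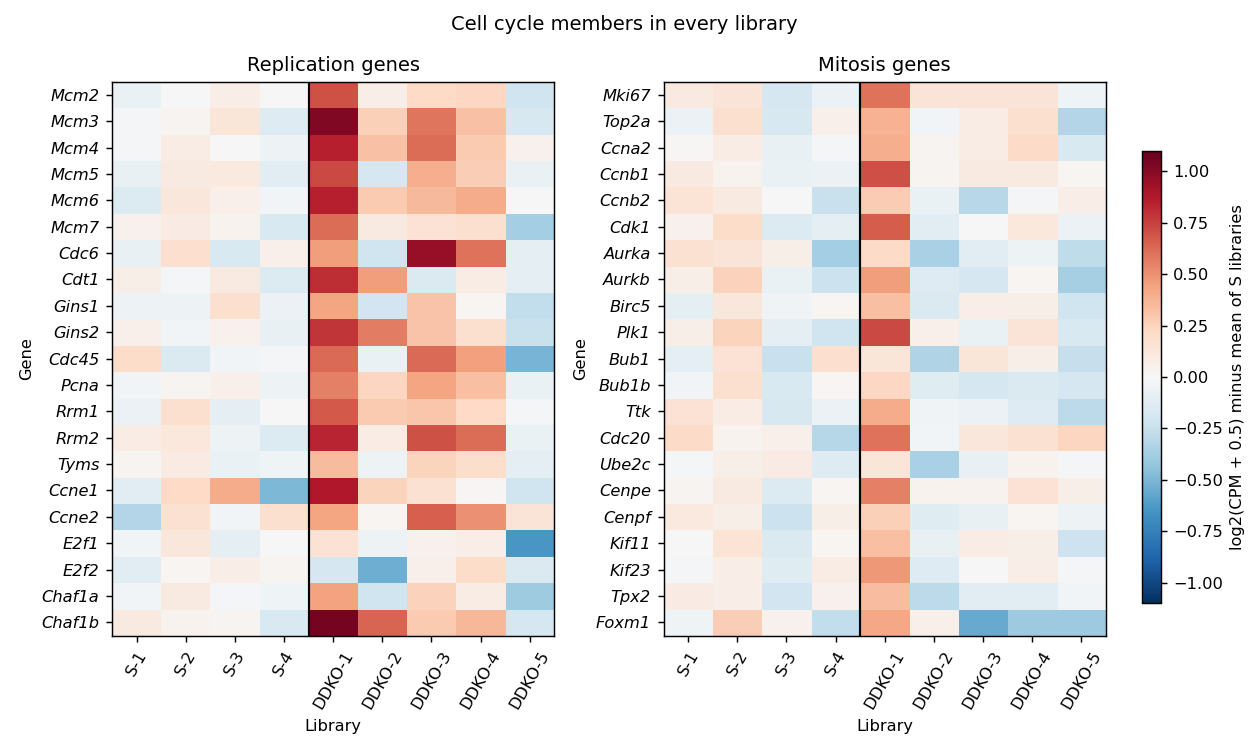
Colour gives, for each of the 21 replication genes (left) and 21 mitosis genes (right), log2(CPM + 0.5) in a library minus the mean of the 4 S libraries, and the black line parts S-1 to S-4 from DDKO-1 to DDKO-5. DDKO-1 is red for nearly every gene of both panels, and DDKO-3 and DDKO-4 are above the S mean for 20 and 21 genes of the left panel and 11 and 15 of the right.

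The mitosis genes stood near the median of all genes. Of 21 tested, 0 passed edgeR's quasi-likelihood test and, without adjustment, 0 had a p under 0.05 in either direction; DESeq2 and limma-voom called 0 as well. Over all genes, edgeR called 13.3%, and 30.6% had an unadjusted p under 0.05. Log2 fold changes ran from -0.14 to 0.22 with a median of 0.03, 12 above 0 and 9 below, and the smallest adjusted p was 0.296 (Cdc20). No gene had its DDKO libraries apart from the S libraries, against 8.34% of all genes above and 8.87% below.

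Mki67, the gene of the proliferation marker Ki67, had the highest level per length of the mitosis genes in both groups (42.7 ± 4.44 CPM per kb in S and 49.2 ± 8.77 in DDKO). Mki67 was at 459, 473, 376 and 409 CPM in S-1 to S-4 and 647, 472, 472, 472 and 414 CPM in DDKO-1 to DDKO-5. DDKO-1 was far above the rest, and the other 4 DDKO libraries lay within the range of S (log2 fold change 0.21, SE 0.13, adjusted p = 0.307, edgeR). Top2a, the topoisomerase that untangles sister chromatids, was at 266, 314, 245 and 289 CPM in S-1 to S-4 and 362, 272, 294, 314 and 222 CPM in DDKO-1 to DDKO-5, with DDKO-1 above and DDKO-5 below the S range (log2 fold change 0.07 ± 0.13).

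Cdk1 with cyclin A2 and the B-type cyclins drives entry into mitosis. Ccna2 was at 129, 135, 120.5 and 126 CPM in S-1 to S-4 and 169, 130.3, 135, 147 and 114 CPM in DDKO-1 to DDKO-5. Ccnb1 was at 46.1, 44.3, 41.0 and 41.2 CPM in S-1 to S-4 and 70.8, 44.04, 46.1, 46.1 and 43.7 CPM in DDKO-1 to DDKO-5. Cdk1 was at 56.8, 63.2, 49.3 and 51.2 CPM in S-1 to S-4 and 87.1, 50.3, 55.1, 59.5 and 52.5 CPM in DDKO-1 to DDKO-5. In all of them DDKO-1 was the highest library, while the other 4 DDKO libraries spanned 43.7 to 46.1 CPM for Ccnb1, against 41.0 to 46.1 CPM in S, and lay within the S range for Cdk1. The log2 fold changes were 0.12 ± 0.11 for Ccna2, which overlaps Exosc9, 0.22 ± 0.14 for Ccnb1, 0.14 ± 0.16 for Cdk1 and -0.0043 ± 0.12 for Ccnb2.

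The mitotic kinases build the spindle and correct its attachments. Aurkb, the kinase of the chromosomal passenger complex, was at 38.2, 43.7, 34.8 and 31.0 CPM in S-1 to S-4 and 50.5, 33.2, 32.1, 37.3 and 28.4 CPM in DDKO-1 to DDKO-5. Plk1, the polo-like kinase of centrosomes and kinetochores, was at 46.0, 52.2, 41.1 and 37.7 CPM in S-1 to S-4 and 73.0, 45.6, 41.7, 48.6 and 39.0 CPM in DDKO-1 to DDKO-5. Outside DDKO-1 the DDKO libraries lay within the S range for Plk1, and DDKO-5 lay below it for Aurkb (log2 fold change 0.16 ± 0.18 and -0.02 ± 0.16). Aurka, the kinase of the spindle poles, had a log2 fold change of -0.13 ± 0.15 and Birc5, the passenger protein survivin, of 0.03 ± 0.11. The spindle checkpoint genes Bub1, Bub1b and Ttk, which hold anaphase until all chromosomes are attached, had values of -0.05, -0.08 and -0.01 with SE of 0.11 to 0.15. The kinetochore genes Cenpe and Cenpf had 0.18 ± 0.12 and 0.0037 ± 0.10, and Kif11, Kif23 and Tpx2, which serve the bipolar spindle and cytokinesis, had 0.04, 0.09 and -0.03 with SE of 0.11 to 0.13.

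Cdc20, which activates the anaphase-promoting complex, was at 67.0, 59.4, 60.3 and 46.5 CPM in S-1 to S-4 and 87.6, 56.8, 62.9, 65.1 and 68.0 CPM in DDKO-1 to DDKO-5, and had the largest log2 fold change of the mitosis genes (0.22 ± 0.14). Ube2c, the ubiquitin-conjugating enzyme of that complex, had -0.05 ± 0.10. Foxm1, the transcription factor of G2 genes, was at 32.9, 41.4, 35.3 and 28.1 CPM in S-1 to S-4 and 46.1, 35.4, 23.1, 25.7 and 25.7 CPM in DDKO-1 to DDKO-5. DDKO-3, DDKO-4 and DDKO-5 lay below the S range for Foxm1 and DDKO-1 above it (log2 fold change -0.14 ± 0.20, adjusted p = 0.666, edgeR). Cdc20, Ube2c and Foxm1 overlap other genes (Elovl1, Tnnc2, and Tex52 with Gm44596), and strand use in the counting is not stated.

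The D-type cyclins link growth signals to the cycle, and neither passed the test. Ccnd1, which overlaps Lto1 on the other strand, was at 126, 203, 141 and 132 CPM in S-1 to S-4 and 149, 112, 221, 215 and 187 CPM in DDKO-1 to DDKO-5. Ccnd2 was at 354, 366, 357 and 369 CPM in S-1 to S-4 and 435, 399.5, 364, 285 and 369 CPM in DDKO-1 to DDKO-5. The highest Ccnd1 values were in DDKO-3 and DDKO-4, followed by S-2, and those of Ccnd2 in DDKO-1 and DDKO-2 (log2 fold change 0.23 ± 0.21 and 0.04 ± 0.11).

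**Figure D2:**
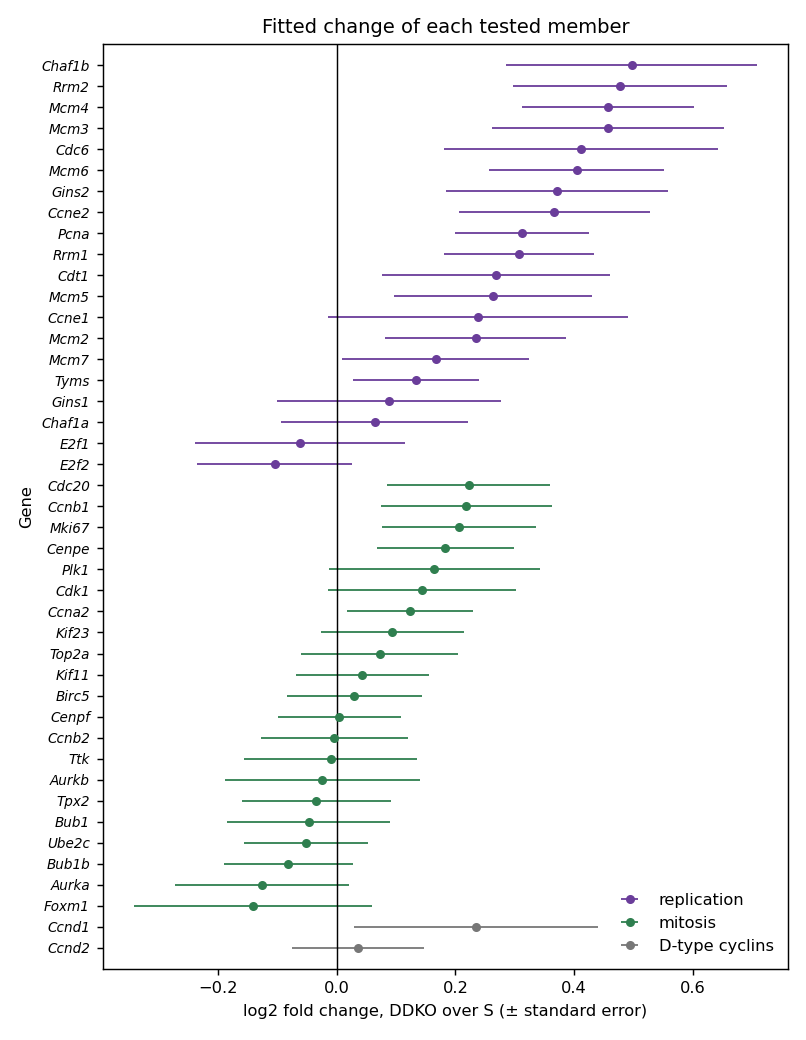
Points give the log2 fold change of DDKO over S for the 43 tested genes and bars its standard error, with replication genes in purple, mitosis genes in green and D-type cyclins in grey. The replication genes run from -0.10 to 0.50 and the mitosis genes from -0.14 to 0.22, and no point passed an adjusted p of 0.05.

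The values of the phases in each library are set side by side here. Summed over the 21 genes, replication stood at 873, 954, 921 and 863 CPM in S-1 to S-4 and at 1414, 983, 1151, 1096 and 828 CPM in DDKO-1 to DDKO-5. Mitosis stood at 1794, 1915, 1591 and 1697 CPM and at 2396, 1714, 1782, 1861 and 1606 CPM. Replication lay above the S range in 4 of 5 DDKO libraries and below it in DDKO-5, and mitosis lay above the S range in DDKO-1 alone. The ratio of the replication sum to the mitosis sum, as a percent, was 48.7%, 49.8%, 57.9% and 50.9% in S and 59.0%, 57.3%, 64.6%, 58.9% and 51.5% in DDKO (51.8 ± 4.15% and 58.3 ± 4.67%, mean ± SD), and the groups overlapped. This ratio is compared between libraries only, since it adds genes of unequal length.

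As the mean log2 level relative to S, DDKO-1 to DDKO-5 stood at 0.622, 0.097, 0.359, 0.267 and -0.180 for replication (S -0.073 to 0.069) and at 0.412, -0.098, -0.044, 0.032 and -0.129 for mitosis (S -0.100 to 0.131). DDKO-1 thus lay above the S range in both phases, DDKO-2, DDKO-3 and DDKO-4 in replication alone, and DDKO-5 below it in both. DDKO-1 was the highest of the 9 libraries for 18 of 21 replication and 20 of 21 mitosis genes, and it was the highest for 17.7% of all genes. DDKO-5 was the lowest for 11 and 7 genes, against 8.82% of all genes. The SD of log2 levels was larger in DDKO than in S for 21 of 21 replication genes (median SD 0.338 and 0.116) and 19 of 21 mitosis genes (0.231 and 0.152), where it was so for 75.1% of 14574 genes.

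**Figure D3:**
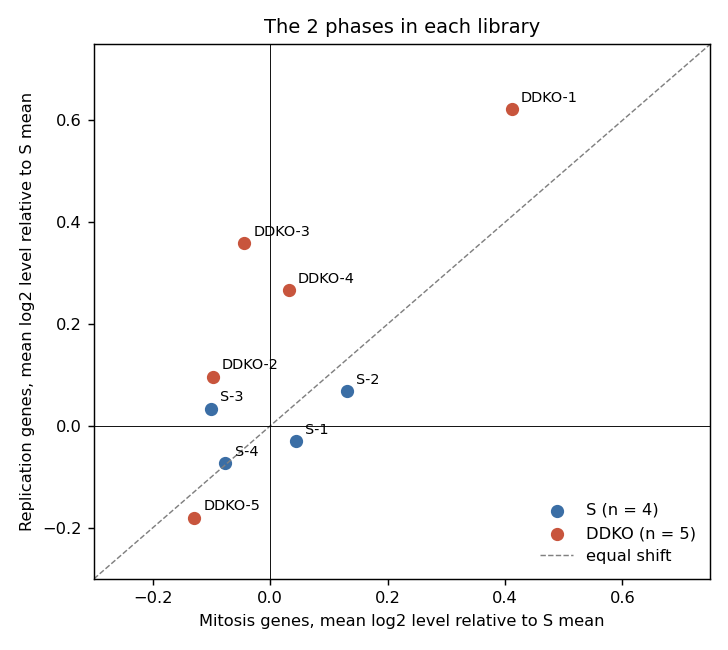
Each point is a library, with the mean log2 level of the mitosis genes on the horizontal axis and of the replication genes on the vertical axis, both relative to the S mean; blue points are S (n = 4) and red points DDKO (n = 5). DDKO-1 to DDKO-4 lie above the dashed line of equal shift by 0.195 to 0.403 and DDKO-5 lies at -0.051 from it.

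Other measures also differed among the DDKO libraries, and none followed the replication level in every library. Setd2 was lowest in DDKO-4, DDKO-3 and DDKO-1 (53.9, 55.7 and 57.8 CPM), which were the 3 highest in replication, and was 87.1 and 76.1 CPM in DDKO-2 and DDKO-5. The 8 markers of differentiated colonocytes and goblet cells summed to 10151 to 12929 CPM in S and to 4833, 7739, 9479, 6909 and 8862 CPM in DDKO-1 to DDKO-5, lowest in DDKO-1, while DDKO-3, the second highest in replication, had the highest of these DDKO sums. Of these 8 genes 1 was called and 3 lay above 0, and Muc2, the main mucin of goblet cells, fell (7554, 5383, 6801 and 4835 CPM in S-1 to S-4 and 1672, 2758, 1873, 1700 and 2010 CPM in DDKO-1 to DDKO-5; log2 fold change -1.62, SE 0.18, adjusted p = 0.000542, edgeR). Muc2 had a mean of 6143 CPM in S and 2003 CPM in DDKO, and the remaining 7 markers summed to 4852 to 6438 CPM in S and 3161 to 7605 CPM in DDKO, lowest in DDKO-1, and the groups overlapped. Among genes of surface colonocytes, Krt20, Clca4a and Car1 lay above 0 at 0.34, 0.43 and 0.07 on the log2 scale (edgeR adjusted p of 0.0768, 0.0634 and 0.929), and Car4, Slc26a3 and Aqp8 below it at -0.43, -0.46 and -0.31 (edgeR adjusted p of 0.196, 0.236 and 0.437). Of 8 crypt base markers, 4 lay above 0 and 4 below, with a median of -0.04, and 1 was called (12.5%, as in the 8 differentiated markers, against 13.3% of all genes). Sox9, a transcription factor of crypt cells, was at 79.4, 72.6, 77.0 and 71.1 CPM in S-1 to S-4 and 51.5, 41.0, 58.8, 51.8 and 70.3 CPM in DDKO-1 to DDKO-5 and fell (log2 fold change -0.46, SE 0.13, adjusted p = 0.0439, edgeR). Lgr5, the stem cell marker, had a log2 fold change of -0.66 and did not pass the test (adjusted p = 0.136, edgeR). Ascl2 and Smoc2 had -0.24 and -0.16, and Axin2, Cd44, Rnf43 and Ephb2 lay above 0 at 0.15, 0.13, 0.11 and 0.07. DDKO-5, the lowest in replication, was also the lowest DDKO library in the summed leukocyte markers (164, 146, 130.2, 167 and 72.1 CPM in DDKO-1 to DDKO-5) and in the stroma and vessel markers (40.6, 46.5, 69.8, 39.4 and 30.6 CPM). S-4, with the highest leukocyte sum of the 9 libraries (194 CPM), had one of the lower replication sums (863 CPM). The part of these measures in the cell cycle values was not tested.

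Among the 9 leave-one-out fits, replication genes were called only without DDKO-5. Without DDKO-5, edgeR called 8 replication genes higher (Mcm3, Mcm4, Mcm6, Gins2, Pcna, Rrm1, Rrm2 and Chaf1b, with log2 fold changes from 0.39 for Rrm1 to 0.64 for Chaf1b and edgeR adjusted p from 0.0109 for Pcna to 0.0405 for Gins2) and 0 lower, and the median was 0.38; the same fit called 9.52% of all genes higher, where the fit of all 9 libraries called 6.76%. Without DDKO-1 it called 0, with a median of 0.16, and without any other single library it called 0. The replication median stayed above 0 in all 9 leave-one-out fits (0.16 to 0.38), while that of mitosis ran from -0.06 to 0.10. Among the libraries without high Y-linked counts alone (4 S against DDKO-3 and DDKO-4), 8 replication genes were higher (Mcm3, Mcm4, Mcm5, Mcm6, Cdc6, Pcna, Rrm2 and Ccne2), Ccnd1 was higher and Foxm1 lower, with medians of 0.26 for replication and 0.04 for mitosis. Of all 15138 genes in that fit, 9.29% were higher and 10.1% lower. In that fit the log2 fold change was 0.81 for Cdc6, 0.67 for Rrm2 and -0.50 for Foxm1 (adjusted p = 0.00636, 0.00235 and 0.0442, edgeR), and over all alternatives the adjusted p ranged from 0.00636 to 0.456 for Cdc6, 0.00235 to 0.214 for Rrm2 and 0.0442 to 0.916 for Foxm1. With a term for Y-linked counts over all 9 libraries, Cdc6 alone of the 44 genes was called (0.80, adjusted p = 0.0399, edgeR), against 4.47% of all genes higher. DDKO-1, DDKO-2 and DDKO-5 had no S library of high Y-linked counts to be compared with, so the term left DDKO-3 and DDKO-4 against S. That is the contrast of the fit without those libraries, and these fits are not separate checks.

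**Figure D4:**
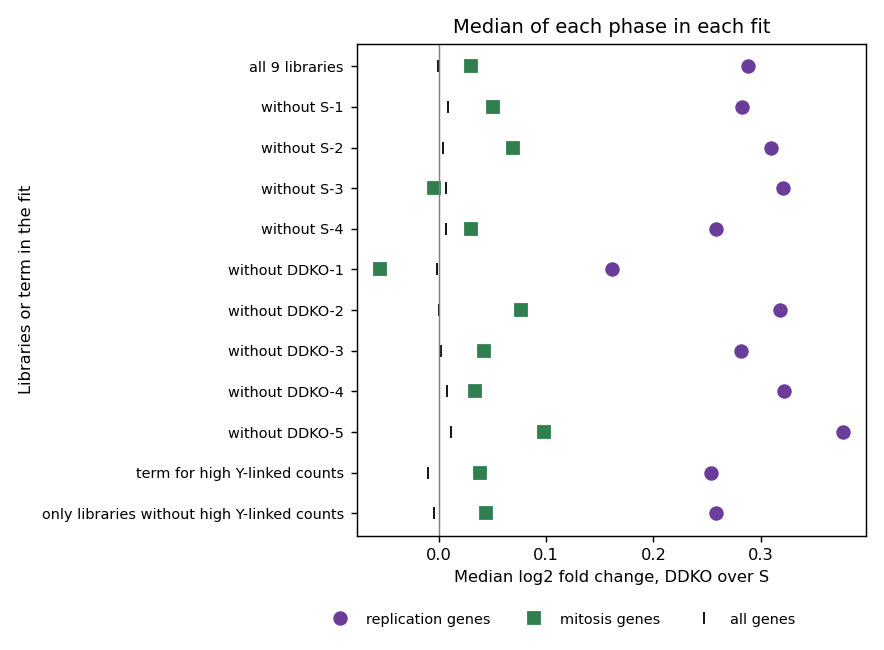
Each line is a fit with the libraries or the term named at its left, and symbols give the median log2 fold change of DDKO over S for the replication genes (purple circles), the mitosis genes (green squares) and all genes tested (black ticks). The replication median lies above the mitosis median in every fit shown, and is lowest without DDKO-1 (0.16) and highest without DDKO-5 (0.38).

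Other genes of the same processes were read from lists. Of 42 other replication genes, 1 was higher and 0 lower by edgeR's test, with 12 higher and 0 lower at an unadjusted p under 0.05, where 6.76% of all genes were higher and 6.54% lower by the adjusted p and 15.3% in each direction by the unadjusted p. Without DDKO-1 the unadjusted counts were 5 higher (11.9%, against 13.8% of all genes) and 3 lower (7.14%, against 14.6%). Without DDKO-5 they were 21 higher (50%, against 18.1%) and 0 lower. Higher genes numbered 8 without S-1 or S-3 (19.05%, against 12.9% and 12.4%) and 7 without S-4 (16.7%, against 13.9%). The median log2 fold change of the 42 genes was 0.20, with 35 above 0. Wdhd1, which couples the helicase to DNA polymerase alpha, was at 20.3, 23.7, 22.0 and 27.0 CPM in S-1 to S-4 and 59.9, 51.0, 43.3, 45.7 and 29.4 CPM in DDKO-1 to DDKO-5. Wdhd1 rose, with every DDKO library above every S library (log2 fold change 0.98, SE 0.18, adjusted p = 0.00685, edgeR; 8.11e-06 to 0.0316 over the alternatives). Cdc7, the kinase that phosphorylates the Mcm helicase at firing origins, was also apart between the groups (11.2 to 14.9 CPM in S and 15.01 to 24.7 CPM in DDKO) and missed the threshold (log2 fold change 0.55, SE 0.17, adjusted p = 0.0516, edgeR). Of 52 other mitosis genes, 51 were tested, 1 was higher (1.96%, against 6.76% of all genes) and 0 lower, and their median was 0.01. That gene was Dlgap5, which stabilises the microtubules of the kinetochore. Dlgap5 was at 26.2, 24.3, 19.8 and 22.4 CPM in S-1 to S-4 and 42.9, 29.3, 32.0, 34.2 and 30.6 CPM in DDKO-1 to DDKO-5 and rose (log2 fold change 0.54, SE 0.13, adjusted p = 0.0223, edgeR; 0.0765 without S-3, 0.0614 without S-4 and 0.0880 in the fit with a Y-linked term).

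Of 32 genes that set or brake the G1 to S and G2 to M steps, 2 rose and 3 fell, with a median of 0.12; these 5 are 15.6% of the list, near the 13.3% called over all genes. Cdkn2a, whose locus encodes the cell cycle inhibitors Ink4a and Arf, had 0, 1, 2 and 1 counts in S and 16, 16, 31, 27 and 19 counts in DDKO. At a floor of 3 counts per library, Cdkn2a was at least 8-fold higher in DDKO (adjusted p = 0.000993, edgeR), at a level of 1.03 to 2.17 CPM. Rb1, the retinoblastoma protein that holds E2F, was at 58.3, 58.1, 52.1 and 60.7 CPM in S-1 to S-4 and 63.6, 77.1, 94.5, 90.3 and 69.6 CPM in DDKO-1 to DDKO-5 and rose (log2 fold change 0.46, SE 0.12, adjusted p = 0.03, edgeR). Its adjusted p lay between 0.0506 and 0.0987 without S-1, S-2, S-3, S-4, DDKO-3 or DDKO-4, and Rb1 overlaps Lpar6 and Rcbtb2.

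The genes that fell were a G1 cyclin and brakes on the Cdks. Cdkn2c, an inhibitor of Cdk4 and Cdk6, was at 16.9, 15.1, 12.7 and 14.2 CPM in S-1 to S-4 and 7.88, 9.18, 3.71, 3.22 and 5.89 CPM in DDKO-1 to DDKO-5 and fell (log2 fold change -1.30, SE 0.28, adjusted p = 0.0145, edgeR). Ccnd3, the remaining D-type cyclin, was at 48.5, 46.7, 49.4 and 39.7 CPM in S-1 to S-4 and 24.4, 20.4, 29.9, 29.8 and 31.3 CPM in DDKO-1 to DDKO-5 and fell in all 5 DDKO libraries (log2 fold change -0.76, SE 0.13, adjusted p = 0.00509, edgeR). Pkmyt1, which phosphorylates and restrains Cdk1, was at 26.5, 24.5, 35.3 and 22.0 CPM in S-1 to S-4 and 21.8, 17.1, 13.6, 15.7 and 17.1 CPM in DDKO-1 to DDKO-5 and fell (log2 fold change -0.66, SE 0.16, adjusted p = 0.0246, edgeR), with an adjusted p between 0.0503 and 0.0837 without S-1, S-3, DDKO-3 or DDKO-4 and of 0.0694 with the replicate number as a block. Ccnd3 overlaps Bysl and Pkmyt1 overlaps Paqr4 on the other strand. The remaining genes of the list that were to be named whatever their result did not pass the test. Cdkn1a, an inhibitor of Cdk2, was at 103, 48.7, 65.3 and 51.6 CPM in S-1 to S-4 and 99.9, 123, 61.9, 64.0 and 99.3 CPM in DDKO-1 to DDKO-5. Its log2 fold change was 0.42 ± 0.26, and S-1 exceeded every DDKO library but DDKO-2. With a Y-linked term the value was -0.093 and without the libraries of high Y-linked counts -0.090, both for DDKO-3 and DDKO-4 against S. The Cdk inhibitor Cdkn1b was at 81.2, 73.5, 75.9 and 95.8 CPM in S-1 to S-4 and 55.8, 75.6, 77.0, 83.8 and 72.2 CPM in DDKO-1 to DDKO-5. Cdkn2b, which lies beside Cdkn2a on the chromosome, was at 45.2, 33.8, 45.6 and 41.8 CPM in S-1 to S-4 and 30.8, 36.1, 58.9, 57.2 and 38.9 CPM in DDKO-1 to DDKO-5. The groups overlapped for both, with log2 fold changes of -0.16 ± 0.12 and 0.09 ± 0.19. Over the 18 alternative fits Cdkn2b ran from -0.023 to 0.49 and was called in 1, and Cdkn1b ran from -0.21 to -0.016 and was called in 0. Myc, a transcription factor of growth genes, was at 35.9, 46.6, 38.6 and 37.2 CPM in S-1 to S-4 and 53.0, 31.4, 30.1, 32.5 and 33.2 CPM in DDKO-1 to DDKO-5. DDKO-1 was the highest library for Myc and the other 4 DDKO libraries lay below the S range (log2 fold change -0.13 ± 0.17).

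**Figure D5:**
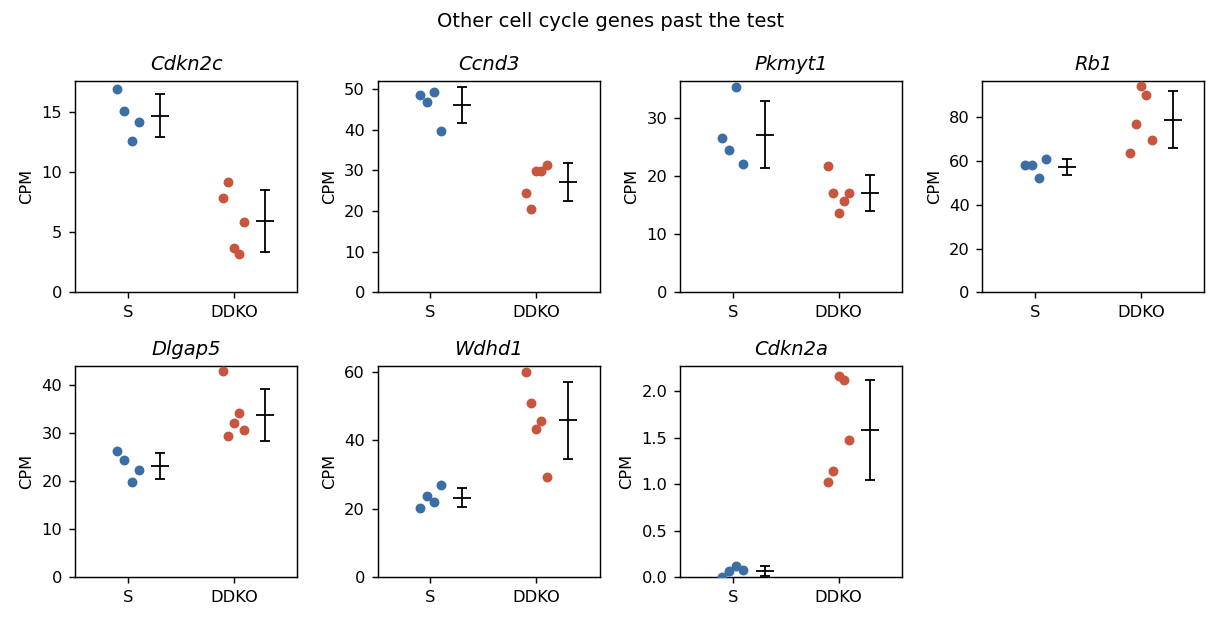
CPM of the 7 other cell cycle genes past an adjusted p of 0.05, with a point for each library (blue S, n = 4, and red DDKO, n = 5) and bars for the mean ± SD. Cdkn2c, Ccnd3 and Pkmyt1 lie lower in DDKO and Rb1, Dlgap5, Wdhd1 and Cdkn2a higher, with no overlap between the groups for any of them. The genes were chosen by that adjusted p in the same libraries, so their separation adds no support. DDKO lay wholly above S for 8.34% of all genes and wholly below for 8.87%.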

How the data were processed

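RNA-seq of colonic IECs was analysed in 4 S and 5 DDKO libraries, grouped by the genotype in the sample labels. The authors deposited whole-number counts per gene symbol, without normalization and without pooling of libraries; the submitters' processing notes name HISAT2 2.0 and mm10, and the counting program, annotation and strand setting are not given in the sources used here. Total counts per library were 12487129 to 17120202, and depth limits values of low genes such as Cdc45. Of 46095 symbols, 27 had become dates and stayed in totals and tests unnamed. Reads shared by overlapping or near-identical genes could be split by the counting.

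With R 4.3.3, genes were kept with filterByExpr by group (14593 genes), normalized with TMM and tested with the quasi-likelihood F test of edgeR 4.0.16 over all 9 libraries without covariates, with Benjamini-Hochberg adjustment over all genes tested and a threshold of 0.05. The standard error is the absolute log2 fold change over the square root of F. CPM are TMM-scaled, and mean log2 levels used log2(CPM + 0.5). Levels per kb used exon lengths of GENCODE on GRCm38. For every pair within a group the chi-square per gene was 9.22 or more, so that no pair agreed within counting noise and each library was counted once; this does not show that they came from separate mice. The steps were tested on simulated data.

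Alternatives were DESeq2 1.42.0, limma-voom with quality weights (limma 3.58.1), DESeq2 size factors or library size alone in edgeR, no filter, at least 10 counts in every library, a rule of fold over 1.5 and unadjusted p under 0.05, each library left out, the replicate number as a block, and a term for, or the exclusion of, libraries with at least 1000 counts of 4 Y-linked genes. Values in every library are given for the listed cell cycle genes past the threshold (Cdkn2a in counts) and for 21 members and 7 other genes named by rule whatever their result, with those of Mcm4, Cdc45, Setd2, Muc2 and Sox9 in addition, Mcm4 and Cdc45 chosen after their values were seen. The members and lists were chosen with earlier results of these data known. Of the list genes, 3 were matched by an older symbol.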

Additional observations from a re-analysis of the deposited data

Results flagged for a closer look

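The 112 groups tested were each named gene and the mean log2 level of each phase, in 4 S or 5 DDKO libraries. In 10 of them 1 library stood farther from the others than Dixon's limit allows, and DDKO-1 was that library in 7 of the 10. For a single group chance gives about 1 in 20. The groups come from the same libraries and are not independent, so 10 of 112 cannot be set against that rate. Mki67, the proliferation marker, was at 647 CPM in DDKO-1 and 414 to 472 CPM in the other DDKO libraries. The mitotic cyclin Ccnb1 was at 70.8 CPM (others 43.7 to 46.1), its partner Cdk1 at 87.1 CPM (50.3 to 59.5) and the kinase Plk1 at 73.0 CPM (39.0 to 48.6). The checkpoint gene Bub1b was at 66.6 CPM (49.7 to 51.6), the kinetochore motor Cenpe at 102 CPM (71.5 to 77.7) and Myc at 53.0 CPM (30.1 to 33.2). Among the S libraries, Gins1 was at 7.80 CPM in S-3 (6.51 to 6.54), Chaf1a at 30.5 CPM in S-2 (27.5 to 27.9) and Cenpf at 63.8 CPM in S-3 (78.4 to 81.2). DDKO-1 also had the lowest summed level of differentiated colonocyte and goblet markers (4833 CPM), and the part of that in these values was not tested.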

How the results depend on the processing

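Calls of genes by adjusted p depended on the test, on DDKO-5 and on the Y-linked split, and the cause was not tested. In every fit run, the replication median lay above 0. Higher replication genes (0 of 20) numbered 2 with DESeq2, 3 with limma-voom, 1 with the Y-linked term, 8 in libraries without high Y-linked counts and 0 to 8 over the leave-one-out fits. In libraries without high Y-linked counts, 1 mitosis gene was lower and 1 D-type cyclin higher. All genes higher were 6.76% in edgeR's fit without covariates, 7.54% by the fold rule, 10.01% with DESeq2, 9.61% with limma-voom and 6.97% with DESeq2 size factors. They were 6.39% with at least 10 counts, 4.475% with the Y-linked term, 9.29% without high Y-linked counts and 3.06% to 9.52% over the leave-one-out fits. Of the 42 other replication genes, the 1 higher became 5 with DESeq2, 4 with limma-voom and 11 without high Y-linked counts. That count was 2 with DESeq2 size factors, with at least 10 counts or with the Y-linked term, and 1 to 11 over the leave-one-out fits. Of the 51 other mitosis genes tested, the 1 higher became 3 with DESeq2 or limma-voom and 0 with the Y-linked term or the fold rule. That count was 4 without high Y-linked counts and 0 to 4 with a library left out. The 0 lower became 2 with limma-voom and 4 without high Y-linked counts, against 10.45% and 10.07% of all genes lower. The 2 G1 and brake genes higher became 4 with DESeq2, 1 with at least 10 counts or the fold rule, 6 without high Y-linked counts and 1 to 5 with a library left out. Over all genes, 986 higher and 955 lower became 653 and 632 with the Y-linked term and 455 to 1380 and 392 to 1316 with a library left out, and the lower genes 1525 with limma-voom and 1524 without high Y-linked counts.

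The replicate numbers did not pair the libraries (correlations of deviations -0.096, -0.104, 0.02 and 0.088), and no S library with a number correlated best with its own. With the replicate block, which leaves out DDKO-5, 4 replication genes (Chaf1b, Mcm3, Mcm4 and Pcna), 4 other replication genes, 2 other mitosis genes and 4 G1 and brake genes were higher, against 5.57% of all genes, and Pkmyt1 was no longer called (adjusted p = 0.0694, edgeR).

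The genes given next turned sign, none of them called with all libraries or in a fit that turned its sign. Most of them lay near 0 with all libraries, but not Cdt1 (0.27) or Cdkn1a (0.42). Only Cdkn2b among them was called in any alternative fit, 1 of 18. With the Y-linked term the log2 fold change was -0.039 for Cdt1, 0.060 for E2f1, 0.13 for E2f2, 0.092 for Bub1, -0.039 for Cenpf, -0.15 for Ccnd2 and -0.093 for Cdkn1a. In the fit without high Y-linked counts, which like that with the term compares DDKO-3 and DDKO-4 with S, it was -0.035 for Cdt1, 0.065 for E2f1, 0.14 for E2f2, 0.10 for Bub1, -0.035 for Cenpf, -0.15 for Ccnd2 and -0.090 for Cdkn1a. With the replicate block it was 0.072 for E2f1, 0.052 for Aurkb, 0.014 for Bub1 and 0.054 for Ttk. With library size alone it was 0.039 for Ccnb2, 0.024 for Aurkb, 0.036 for Ttk and 0.0076 for Tpx2. With limma-voom it was 0.0050 for Bub1, -0.00042 for Cenpf and -0.083 for Ccnd2. With DESeq2 it was 0.0033 for Ccnb2. With DESeq2 size factors in edgeR it was 0.0034 for Ccnb2. With at least 10 counts in every library it was 0.0060 for Ccnb2 and 0.00038 for Ttk. With no filter on low counts it was -0.015 for Cenpf. With a library left out, the lowest and highest values were -0.021 and 0.18 for Gins1, -0.12 and 0.071 for E2f1, -0.048 and 0.17 for Chaf1a, -0.014 and 0.17 for Top2a, -0.085 and 0.073 for Ccnb2, -0.019 and 0.21 for Cdk1, -0.17 and 0.064 for Aurkb, -0.055 and 0.10 for Birc5, -0.016 and 0.25 for Plk1, -0.12 and 0.022 for Bub1, -0.14 and 0.066 for Ttk, -0.10 and 0.020 for Ube2c, -0.067 and 0.046 for Cenpf, -0.036 and 0.12 for Kif11, -0.019 and 0.15 for Kif23, -0.14 and 0.027 for Tpx2, -0.026 and 0.13 for Ccnd2 and -0.023 and 0.20 for Cdkn2b.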

Other observations

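Wdhd1 and Dlgap5, the other replication gene and the other mitosis gene that rose, are neighbours on chromosome 14 (GRCm38, chr14:47240944-47276857 and chr14:47387779-47418407, both on the minus strand), 110.9 kb apart. This was seen after their values were known. Of the 7 other genes tested within 300.0 kb of them, all had a log2 fold change above 0, and 1 passed the quasi-likelihood test of edgeR, adjusted by Benjamini-Hochberg, where 13.3% of all genes were called and 50% lay below 0. With 1 of 7 called, the calls were near that share. That gene was Gch1, the first enzyme of tetrahydrobiopterin synthesis, with a log2 fold change of 0.77 (SE 0.11, adjusted p = 0.00217). Lgals3, which encodes galectin-3 and lies between Wdhd1 and Dlgap5, had a log2 fold change of 0.40 (SE 0.13, adjusted p = 0.0746, edgeR), and Atg14, an autophagy gene, of 0.43 (SE 0.16, adjusted p = 0.105, edgeR). Socs4, Mapk1ip1l, Fbxo34 and Ktn1 had values of 0.20, 0.10, 0.34 and 0.24.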
